A study of Homo sapiens with 2 samples.

Results

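The genes of the proteasome were examined in 2 lung cancer cell lines. They were chosen by name: every gene whose symbol is PSMA, PSMB, PSMC, PSMD, PSME, PSMF or PSMG followed by a number, without PSMB8 and PSMB9, plus POMP. The rule found 47 of the 27685 genes listed and used no measured value. RNA was sequenced from untreated cultures of the human cell lines H2087 and H596, both labelled as lung adenocarcinoma, with 1 library for each line. No gene had been deleted, and no agent had been added to either culture. Without replicates no test of a difference between the lines could be made, so no p-value is given, and each interval below covers counting error only. A difference between the lines therefore cannot be told apart from a difference between these particular cultures or libraries.

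The proteasome is the large protease that degrades proteins tagged with ubiquitin. Its barrel-shaped core stacks outer rings of alpha subunits (PSMA genes), which gate the entrance, on inner rings of beta subunits (PSMB genes), of which PSMB5, PSMB6 and PSMB7 carry the active sites. A regulatory particle caps the barrel: its base holds a ring of ATPases (PSMC genes) that unfold substrates, and its lid holds the enzyme PSMD14 that removes the ubiquitin chain. Other caps (PSME genes) open the gate without ubiquitin, and chaperones (PSMG1 to PSMG4 and POMP for the core, and PSMD5, PSMD9 and PSMD10 for the base) help to build the complex and are absent from the mature particle. Each core subunit is present in equal numbers in the assembled barrel. When proteasome activity falls short, the transcription factor NFE2L1 is known to raise the transcription of many of these genes through antioxidant response elements.

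The total estimated count was 46961500 in H2087 and 55387847 in H596, and the members together held 0.613% of it (95% Wilson interval 0.611 to 0.616) in H2087 and 0.620% (0.618 to 0.622) in H596. The labelled cell type was checked against marker genes. In H2087 the lung adenocarcinoma markers NKX2-1, SFTPA1 and NAPSA had FPKM of 110, 82.9 and 21.9, but SFTPB was at 0.123 and SFTPC had 0 counts. In H596 NKX2-1 and NAPSA were at 0.508 and 0.0645 FPKM and SFTPA1 and SFTPB had 0 counts, and SFTPC had 2, whereas the squamous markers TP63, KRT5, KRT6A and DSG3 were at 33.9 to 106 FPKM and were at 1.48 FPKM or less in H2087. SOX2, the remaining squamous marker, was at 39.1 FPKM in H2087 and 56.5 in H596. The markers of H596 thus go against its label in part, and KRT7 was high in both lines (791 and 608 FPKM). Among the epithelial markers EPCAM, KRT8 and KRT18 were lower in H596 (375 against 65.0, 2493 against 536 and 3607 against 234 FPKM). KRT19 was higher in H596 (561 against 2183 FPKM), and CDH1 was at 52.3 FPKM in H2087 and 59.6 in H596. Of 9 stromal and blood cell markers 6 had a mean FPKM under 1, PTPRC and CD3E had 0 counts in both libraries, DCN had 0 counts in H2087 and 9.77 FPKM in H596, and CD68 and COL1A1 were the higher ones in H2087 (128 against 25.6 and 3.89 against 0.916 FPKM). The part of these features in the values below was not tested.

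The upstream sequences of 4 members are shown because these genes span the results that follow. PSMD9 had the largest difference between the lines as deposited, and PSMA6 was the highest member in H2087. PSME1 and PSME2 are neighbours on chromosome 14 that together form 1 activator. The sequences were taken from the RefSeq promoter windows of build GRCh38, matched letter for letter to GRCh37 (hg19), the build of the deposited values. Each ends at the base before the first base of the gene's main listed transcript. Each reads 5′ to 3′ on the gene's own strand. Capitals mark matches to TGACNNNGC, the core of the antioxidant response element, and to GGGCGG, a GC box, on either strand (a match on the opposite strand appears as its reverse complement, CCGCCC for the GC box). PSMD9 lies on the plus strand, upstream of it chr12:122326446-122326636; PSMA6 on the plus strand, chr14:35761273-35761522; PSME1 on the plus strand, chr14:24605153-24605366; and PSME2 on the minus strand, chr14:24615856-24616069.
PSMD9: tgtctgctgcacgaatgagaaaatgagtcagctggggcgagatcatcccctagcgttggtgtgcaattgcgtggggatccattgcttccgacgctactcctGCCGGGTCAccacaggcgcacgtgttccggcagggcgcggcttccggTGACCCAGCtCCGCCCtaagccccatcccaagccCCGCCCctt
PSMA6: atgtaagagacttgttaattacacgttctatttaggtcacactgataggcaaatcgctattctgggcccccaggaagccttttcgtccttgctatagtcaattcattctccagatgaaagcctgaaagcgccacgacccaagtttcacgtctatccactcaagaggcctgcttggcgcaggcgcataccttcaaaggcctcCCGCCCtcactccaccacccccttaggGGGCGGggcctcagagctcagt
PSME1: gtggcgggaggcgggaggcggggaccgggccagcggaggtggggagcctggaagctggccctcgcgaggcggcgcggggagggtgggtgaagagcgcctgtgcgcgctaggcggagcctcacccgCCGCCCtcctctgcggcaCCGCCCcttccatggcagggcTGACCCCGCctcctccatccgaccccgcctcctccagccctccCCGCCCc
PSME2: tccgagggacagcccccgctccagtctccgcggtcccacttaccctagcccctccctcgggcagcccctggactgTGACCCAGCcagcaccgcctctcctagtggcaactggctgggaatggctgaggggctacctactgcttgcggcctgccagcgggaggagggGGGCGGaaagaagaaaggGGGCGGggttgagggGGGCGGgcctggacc

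The stretch shown for PSMD9 held 2 matches to TGACNNNGC, beginning 43 and 90 bases before the transcript, and 2 GC boxes. Those of PSME1 and PSME2 held 1 match each, beginning 50 and 139 bases before the transcript, and 3 GC boxes each. That of PSMA6 held 2 GC boxes and no TGACNNNGC match. Of the 47 members 41 had a promoter window of 300 bases (250 before and 50 after the RefSeq start), and all 41 were found once in GRCh37. The RefSeq start lay within 100 bases of the gene's deposited start in 28 of the 41. In PSMB2 it lay 318 bases inside the main listed transcript, so the windows do not all cover the stretch before the deposited start. TGACNNNGC occurred in 12 of the 41 windows (29.3%), against 13.6% of all 27305 windows and 15.4% of the 9755 windows of genes expressed in these cells. CCAAT occurred in 18 (43.9%), against 35.7% of all windows, and GGGCGG in 26 (63.4%), against 44.6% of all windows but 71.0% of those of expressed genes. Members with and without TGACNNNGC overlapped over most of their range: their differences between the lines ran from -1.13 to 0.77 on the log2 scale in the 12 with a match and from -0.91 to 0.90 in the 27 without. The medians as deposited were 0.22 with a match and -0.03 without, and a relation between the match and the differences was not tested. A match is a run of letters and was not shown to be bound.

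Levels are given as FPKM, the fragments per kilobase of transcript scaled to the size of the library, and differences as log2(FPKM + 1) in H596 minus that in H2087. Differences were examined for 13047 genes whose FPKM averaged 1 or more over the lines. Of the 47 members 45 qualified. The others were PSMA8, the alpha subunit of the testis, with 0 counts in both libraries (which allows a share of up to 6.39e-06% of H2087's total and 5.42e-06% of H596's), and PSMB11, the beta subunit of the thymus, with 0 and 4 counts.

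Proteasome genes were abundant in both lines. Their FPKM ranged from 12.9 to 348 in H2087 and from 10.8 to 304 in H596, and their median ranks were 1106 and 983 among the listed genes. At 100 FPKM or more, the level that the study used to select genes in H2087, stood 16 members in H2087 and 16 in H596, of which 15 were shared. Over all listed genes the share at this level was 2.54% in H2087 and 2.30% in H596. The counting interval held 100 for PSMA2 and PSMD7 in H2087 and for PSMB1 and PSMC3 in H596, so their side of this limit was not resolved at this depth.

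Of the 45 members 1 differed at least 2-fold between the lines, PSMD9, which was lower in H596. Over all genes examined 32.4% differed this much, and 14.2% were lower in H596. At the smaller size of 1.5-fold 16 of 45 members (35.6%) differed, against 54.6% of all genes. Of them 9 were higher in H596, where 30.6% of all genes were, and 7 were lower, where 24.0% were. All 45 had a mean FPKM of at least 10, and among the 6708 genes at that level the shares were 29.6% at 2-fold and 53.1% at 1.5-fold. The SD of the differences was 0.53 over the members and 1.31 over all genes, on the log2 scale. The counting intervals of the 2 lines did not overlap for 42 of 45 members, against 85.4% of all genes; PSMA1, PSMC6 and PSME3 were the members whose intervals overlapped.

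The median difference was 0.05 over the members and 0.12 over all genes. Its sign depended on how the libraries were scaled: after edgeR's TMM scaling the median of all genes was 0.00 and that of the members was -0.09, and after rescaling to TPM the medians were 0.30 and 0.23. The members' median lay 0.07 under that of all genes as deposited. Under TMM 6 members were higher and 10 lower by 1.5-fold, and under TPM 12 were higher and 4 lower. Directions near 0 are therefore given below with the scalings under which they turn.

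**Figure D1:**
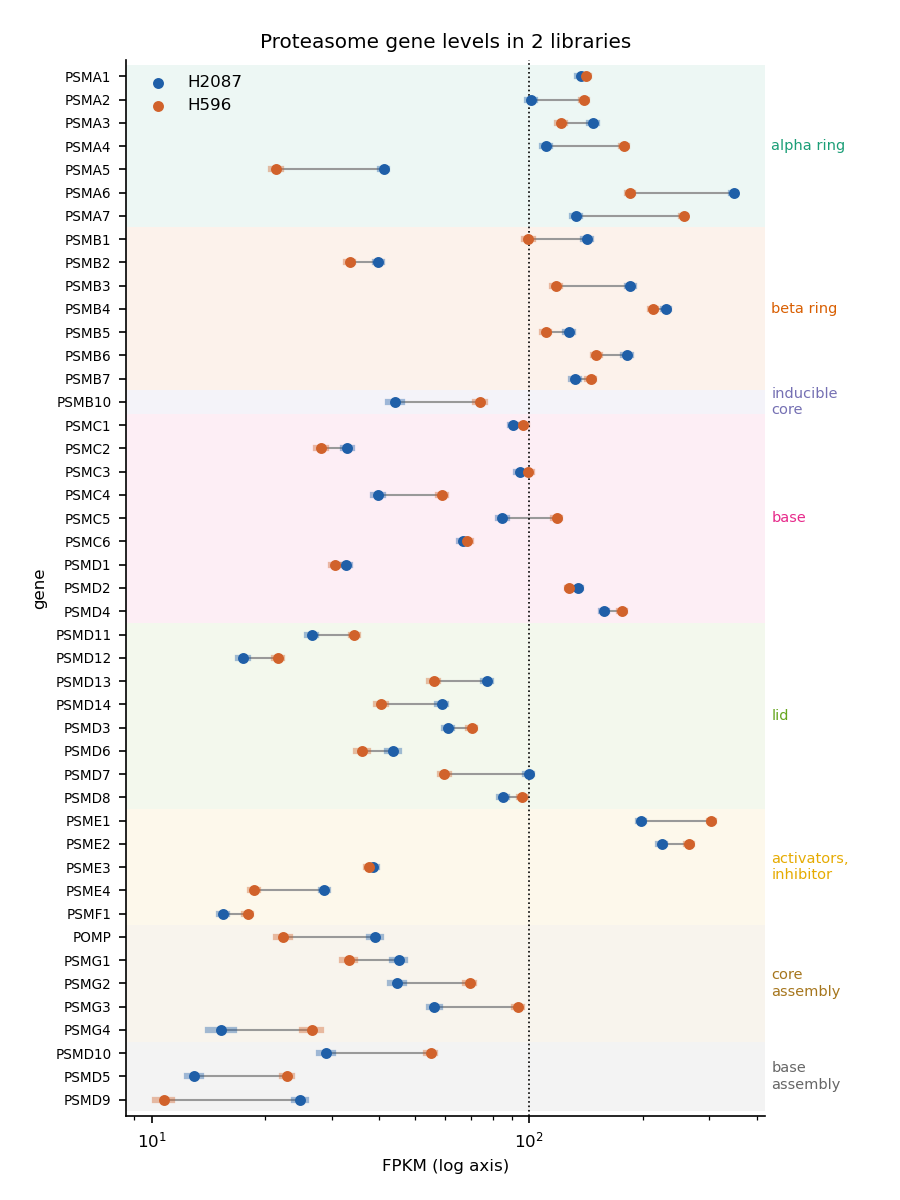
FPKM (x axis, log scale) of the 45 examined members (y axis, ordered by their place in the proteasome) in H2087 and H596; each point is 1 library, thick bars are 95% counting intervals and the dotted line marks 100 FPKM. The points of a gene lie close together: most core subunits stand right of the dotted line in both lines, and the lid members and assembly factors all stand left of it.

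The 7 alpha subunits had a median of 133 FPKM in H2087 and 142 in H596, and their differences ran from -0.91 to 0.94. PSMA6 had the highest level of any member in H2087, 348 FPKM (95% counting interval 343 to 353, 17869 counts), and was at 185 (181 to 188, 11157 counts) in H596. PSMA7 went the other way, from 133 (130 to 137, 6600 counts) to 257 (253 to 261, 15027 counts). Their order was therefore exchanged: the ratio of PSMA7 to PSMA6, which no scaling of a library can alter, was 0.384 (0.373 to 0.395) in H2087 and 1.39 (1.36 to 1.42) in H596. The differences were -0.91 for PSMA6 and 0.94 for PSMA7. PSMA6 lies on chromosome 14 (35747764 to 35786685) and PSMA7 on chromosome 20 (60711783 to 60718514).

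PSMA5, on chromosome 1 (109941653 to 109969108), was the lowest alpha subunit in both lines, at 41.2 FPKM (40.2 to 42.1, 7532 counts) in H2087 and 21.4 (20.8 to 22, 4627 counts) in H596. Its difference was -0.91. PSMA4 was at 111 FPKM (108 to 113, 6666 counts) and 178 (175 to 181, 12689 counts), a difference of 0.68. PSMA1, PSMA2 and PSMA3 lay between 101 and 148 FPKM in both lines, with differences of 0.05, 0.47 and -0.28. Of the 7 subunits 4 were higher and 3 lower in H596, which became 3 and 4 under TMM scaling.

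In the beta ring 6 of 7 subunits were lower in H596, with a median difference of -0.24, beside 44.9% of all genes that were lower. The count was the same after TMM scaling (median -0.37), and under TPM 5 were lower (median -0.07), with none past 1.5-fold. PSMB3 was the only beta subunit past 1.5-fold as deposited, at 185 FPKM (181 to 190, 7042 counts) in H2087 and 118 (115 to 121, 5304 counts) in H596, a difference of -0.65 that shrank to within 1.5-fold under TPM. PSMB4 was the highest subunit of the ring, at 231 (226 to 235, 10226 counts) and 213 (209 to 217, 11180 counts). PSMB2 was the lowest, at 39.9 (39.1 to 40.7, 8987 counts) and 33.5 (32.8 to 34.2, 8966 counts). PSMB1 was at 142 and 99.6 FPKM.

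Each of the catalytic subunits was within 1.5-fold. PSMB5, the chymotrypsin-like subunit and the main target of proteasome inhibitor drugs, was at 128 FPKM (125 to 130, 7555 counts) in H2087 and 111 (108 to 113, 7185 counts) in H596. PSMB6, the caspase-like subunit, was at 181 (177 to 186, 7414 counts) and 151 (147 to 154, 7283 counts). PSMB7, the trypsin-like subunit, was at 133 (129 to 136, 6447 counts) and 146 (143 to 149, 8396 counts), and was the 1 beta subunit higher in H596. The differences were -0.20, -0.27 and 0.14.

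PSMB10 is the inducible subunit that takes the place of PSMB7 in the immunoproteasome, the form that favours peptides for antigen presentation. It was at 44.1 FPKM (42.2 to 46.0, 2125 counts) in H2087 and 73.9 (71.7 to 76.2, 4221 counts) in H596, a difference of 0.73. Its ratio to PSMB7 was 0.333 (0.317 to 0.349) in H2087 and 0.507 (0.489 to 0.526) in H596, so PSMB7 stayed the more abundant of the pair in both lines. The other inducible subunits, PSMB8 and PSMB9, were under their constitutive counterparts in H2087 and above them in H596: PSMB8 to PSMB5 was 0.887 (0.859 to 0.917) and 1.53 (1.48 to 1.57), and PSMB9 to PSMB6 was 0.317 (0.304 to 0.331) and 1.18 (1.15 to 1.22).

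Although the 14 constitutive core subunits are used in equal numbers, their FPKM covered an 8.72-fold range in H2087 and a 12-fold range in H596, with an SD of 0.83 and 0.97 on the log2(FPKM + 1) scale. PSMA5 and PSMB2 lay far under the rest in both lines. Their counts were not low (4627 to 8987, against 5181 to 17869 for the other 12 subunits), but their main listed transcripts were 3826 and 4743 bases long, against 796 to 1464 bases for the others. Without them the SD was 0.49 in H2087 and 0.40 in H596. FPKM divides by the listed length, and the part of transcript length in these levels was not tested.

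None of the 9 base subunits chosen by name differed 1.5-fold as deposited. The 9 differences had values from -0.23 to 0.55 and a median of 0.08; 6 were higher in H596, 3 under TMM scaling and 8 under TPM, where PSMC4 and PSMC5 passed 1.5-fold. PSMD4, a ubiquitin receptor, was the highest, at 158 FPKM (155 to 161, 10071 counts) in H2087 and 176 (173 to 179, 13311 counts) in H596. PSMD1, a scaffold subunit, was the lowest in H2087, at 32.7 (31.8 to 33.6, 5205 counts), and was at 30.7 (29.9 to 31.5, 5782 counts) in H596. PSMD2, the other scaffold subunit, was at 135 and 128 FPKM. ADRM1, a base subunit that the name rule did not take in, did pass 1.5-fold as deposited. It was at 61.5 FPKM in H2087 and 99.1 in H596, a difference of 0.68.

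The 6 ATPases of the base, which form 1 ring, were unequal in level. PSMC1 and PSMC3 were at 90.9 and 94.3 FPKM in H2087 and at 96.6 and 99.6 in H596, whereas PSMC2 was at 33.0 and 28.1. PSMC4 was at 39.8 and 58.8, and PSMC5 at 84.9 and 118, which were the largest differences among the base members (0.55 and 0.47). PSMC6 was at 67.0 and 68.5, within counting error.

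Of the 8 lid subunits chosen by name PSMD7 alone passed 1.5-fold as deposited. Under TMM PSMD7, PSMD13 and PSMD14 did, and none did under TPM. PSMD7, the partner of PSMD14, was the highest of the 8 in H2087 at 99.7 FPKM (97.6 to 102, 7983 counts). It was at 59.6 (58.1 to 61.2, 5650 counts) in H596, a difference of -0.73. PSMD14, the deubiquitinase, was at 58.6 (57.0 to 60.3, 4824 counts) and 40.5 (39.3 to 41.8, 3950 counts), a difference of -0.52. Both genes of this pair were thus lower in H596 as deposited. PSMD12 was the lowest, at 17.5 (16.9 to 18, 3688 counts) and 21.6 (21.1 to 22.2, 5412 counts). The other 5 (PSMD3, PSMD6, PSMD8, PSMD11 and PSMD13) lay between 26.6 and 85.4 FPKM in H2087 and between 34.4 and 95.8 in H596, with differences from -0.47 to 0.36. The median over the 8 was -0.05, with 4 higher and 4 lower, and it was -0.18 under TMM and 0.13 under TPM. SEM1, a lid subunit that the name rule did not take in, was at 116 FPKM (112 to 120) in H2087 and 117 (113 to 121) in H596.

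**Figure D2:**
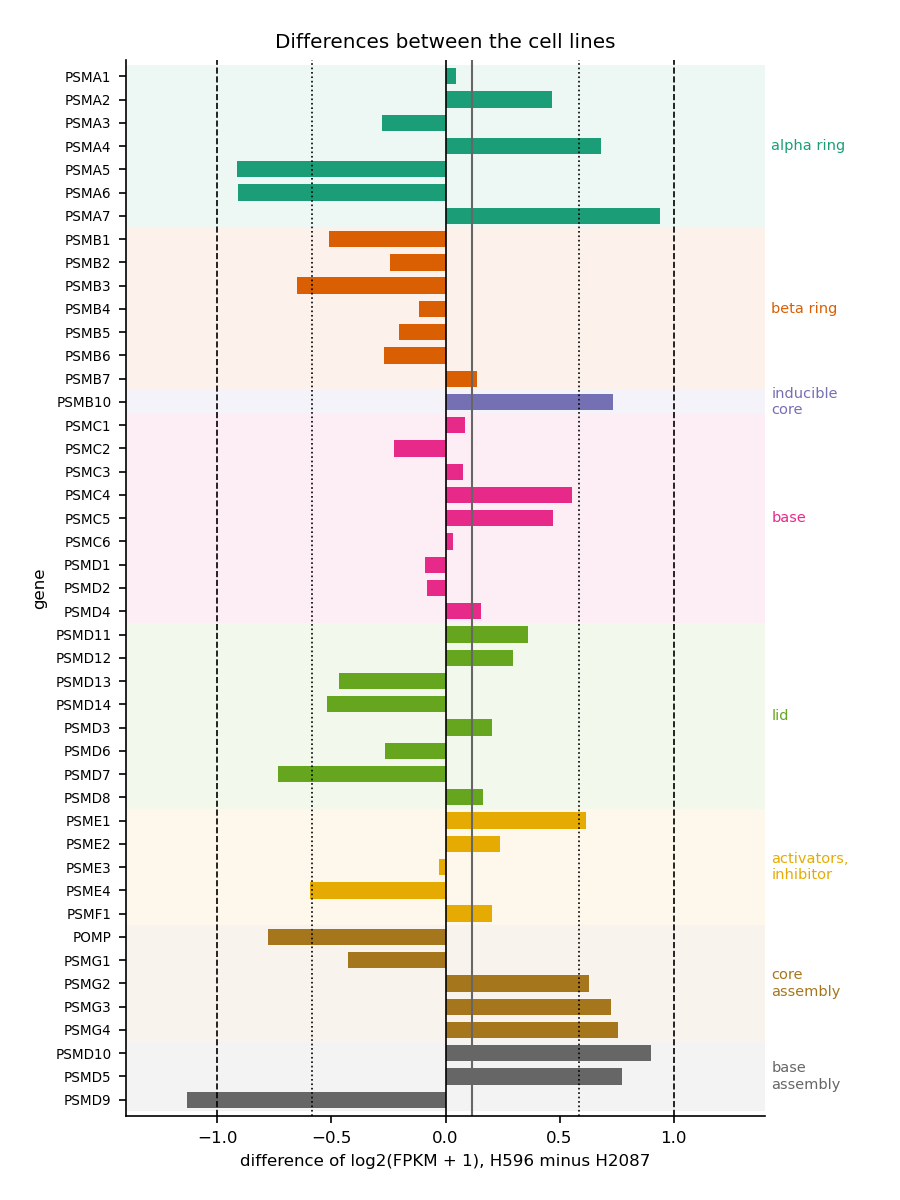
Difference of log2(FPKM + 1), H596 minus H2087 (x axis), for the 45 examined members as deposited (y axis, in the order of the plot of levels); dotted lines mark 1.5-fold, dashed lines 2-fold, and the grey line the median of all genes (0.12). The base members stay within the dotted lines, 7 of 8 assembly factors reach beyond them, and PSMD9 alone passes a dashed line. Directions of bars near 0 turn with the scaling.

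The activators fell into a high pair and a low remainder. PSME1 and PSME2, which form the interferon-inducible activator of the core, were at 198 FPKM (194 to 202, 9606 counts) and 224 (220 to 229, 8912 counts) in H2087. In H596 they were at 304 (299 to 308, 17450 counts) and 265 (260 to 270, 12463 counts), and PSME1 was then the highest of all members. The differences were 0.61 for PSME1, which was within 1.5-fold under TMM, and 0.24 for PSME2. The ratio of PSME1 to PSME2 was 0.883 (0.858 to 0.909) in H2087 and 1.15 (1.12 to 1.17) in H596, so the order of the pair was exchanged. EMC9 is listed on the opposite strand over part of PSME1, and whether the counting used strand was not stated.

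PSME4, the activator known for degrading acetylated histones, was at 28.7 FPKM (28.1 to 29.3, 9770 counts) in H2087 and 18.7 (18.2 to 19.1, 7517 counts) in H596, a difference of -0.60. Its ratio to PSME1 was 0.145 in H2087 and 0.0615 in H596. PSME3, the nuclear activator, was at 38.5 and 37.7 FPKM, and its intervals overlapped. PSMF1, an inhibitor of the core, was the lowest of this group, at 15.5 (15.1 to 15.9, 5979 counts) and 18 (17.6 to 18.4, 8212 counts).

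Most assembly factors differed between the lines. Of the 8 factors 7 passed 1.5-fold (87.5%), against 6 of the 31 constitutive subunits of core, base and lid (19.4%) and 54.6% of all genes. Under TMM 6 of the 8 factors did. Here and below the 31 subunits are those chosen by name, so ADRM1 and SEM1 are not among them. As the lists are short and each gene was measured once per line, this is a description of these libraries. The factors had a lower median level, 34.0 FPKM in H2087 and 29.9 in H596, against 94.3 and 99.6 for the 31 subunits. They ranged from 12.9 to 56.0 FPKM in H2087 and from 10.8 to 93.3 in H596. The subunits ranged from 17.5 to 348 and from 21.4 to 257, so the levels overlapped. Directions of the factors were mixed, with 5 higher and 2 lower in H596 past 1.5-fold.

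For the core, PSMG1 with PSMG2 and PSMG3 with PSMG4 form paired chaperones of the alpha ring. PSMG3 was at 56.0 FPKM (54.1 to 58.0, 3238 counts) in H2087 and 93.3 (91.1 to 95.6, 6649 counts) in H596. PSMG4, the member with the fewest counts among those examined, was at 15.3 (14.1 to 16.6, 613 counts) and 26.5 (25.1 to 28.1, 1204 counts). This pair moved alike, with differences of 0.73 and 0.76. PSMG2 was at 44.7 (42.9 to 46.5, 2408 counts) and 69.5 (67.5 to 71.6, 4434 counts), a difference of 0.63, whereas its partner PSMG1 was at 45.1 (43.3 to 46.9, 2467 counts) and 33.3 (31.9 to 34.6, 2344 counts), a difference of -0.43. The partners that were level with each other in H2087 were therefore apart in H596. POMP, which acts in the final joining of the core, was at 39.0 (37.6 to 40.5, 2731 counts) and 22.3 (21.3 to 23.3, 1849 counts), a difference of -0.78.

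For the base, PSMD10 and PSMD5 were higher in H596 and PSMD9 was lower. PSMD10, also known as the oncoprotein gankyrin, was at 28.9 FPKM (27.7 to 30.2, 2153 counts) in H2087 and 54.9 (53.4 to 56.5, 4869 counts) in H596, a difference of 0.90. PSMD5 was at 12.9 (12.4 to 13.5, 2154 counts) and 22.8 (22.2 to 23.5, 4508 counts), a difference of 0.77. PSMD9, whose upstream sequence with 2 TGACNNNGC matches is printed above, was at 24.8 (23.9 to 25.7, 2787 counts) and 10.8 (10.2 to 11.3, 1425 counts). Its FPKM was 2.30 times as high in H2087, and its difference of -1.13 was the largest among the members as deposited; under TPM it was -0.99, and those of PSMA7 (1.12) and PSMD10 (1.10) were larger. PSMD9 lies on chromosome 12 (122326637 to 122355771) and PSMD10 on chromosome X (107327435 to 107334874).

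The 10 members POMP, PSMA5, PSMA6, PSMA7, PSMB10, PSMD5, PSMD9, PSMD10, PSMG3 and PSMG4 stayed past 1.5-fold in the same direction under each of the 5 other ways of forming the differences. PSMA4, PSME1 and PSMG2 were within 1.5-fold under TMM scaling, and PSMB3, PSMD7 and PSME4 under TPM. Named pseudogenes exist for 18 of the 47 members, PSMA6 and PSMD10 among them, and reads shared with such copies make the values of these members uncertain. No member overlaps another listed gene on its own strand, and 11 overlap one on the opposite strand.

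A list of 31 symbols outside the chosen names held genes of the proteasome, such as ADRM1 and SEM1, and genes that act with it. Of these symbols 28 were found and examined. The 3 others (SHFM1, ECPAS and UFD1L) are alternate symbols of listed genes. Past 1.5-fold 9 of the 28 were higher and 2 lower in H596, beside 30.6% and 24.0% of all genes. These counts were 8 and 5 under TMM and 14 and 2 under TPM. The median difference was 0.35 as deposited, 0.22 under TMM and 0.53 under TPM. Past 2-fold, 4 genes differed. UBQLN2, a shuttle that brings ubiquitinated proteins to the proteasome, was at 8.97 FPKM (8.52 to 9.44) in H2087 and 31.1 (30.4 to 31.9) in H596. PSMB9 was at 57.6 (55.5 to 59.7) and 178 (174 to 181). RPS27A, which encodes ubiquitin fused to a ribosomal protein, was lower in H596, at 966 (958 to 975) and 377 (372 to 382).

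The transcription factor NFE2L1 was the fourth, at 31.8 FPKM (31.0 to 32.5) in H2087 and 67.2 (66.2 to 68.1) in H596, a difference of 1.06 that was under 2-fold after TMM scaling. NFE2L2, a related factor that also acts through antioxidant response elements, was at 42.3 (41.2 to 43.4) and 62.6 (61.4 to 63.8), a difference of 0.55. Beside these levels, the 31 constitutive subunits of core, base and lid had a median difference of -0.08, with 15 higher and 16 lower in H596 as deposited. Under TMM 11 were higher and 20 lower (median -0.21), and under TPM 18 were higher and 13 lower (median 0.10). Only the RNA of NFE2L1 and NFE2L2 was measured, and the part of these factors in the levels of the subunits was not tested. DDI2, the protease that activates NFE2L1, and NGLY1, which removes its sugars, were at 6.24 and 11.2 FPKM in H2087 and at 12.7 and 20.2 in H596; these genes of the list were singled out after their values were seen.

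Other large complexes of fixed make-up were set beside the proteasome. The COP9 signalosome, whose architecture resembles the lid, had a median difference of 0.18 over 9 subunits, of which 1 was higher and 3 lower past 1.5-fold. The translation factor eIF3, also related to the lid, had a median of -0.45 over 13 subunits, with 12 of 13 lower in H596 (11 under TPM) and 5 past 1.5-fold. The chaperonin CCT, which folds actin and tubulin, had a median of -1.03 over 8 subunits. Past 1.5-fold 7 of its 8 subunits were lower, and TCP1, CCT2, CCT4 and CCT8 passed 2-fold (-1.08, -1.52, -1.58 and -1.30). In eIF3, EIF3D (-1.25) and EIF3C (-2.03) passed 2-fold, the latter uncertain because EIF3C has a near-identical copy. As deposited, the share past 1.5-fold was 19.4% for the constitutive proteasome subunits, 44.4% for the signalosome, 38.5% for eIF3 and 87.5% for CCT, beside 54.6% of all genes. Under TMM these shares were 25.8%, 33.3%, 53.8% and 87.5%, beside 54.3% of all genes. Under TPM they were 22.6%, 44.4%, 23.1% and 87.5%, beside 59.4%, so the proteasome and eIF3 were then about equal and the order of the complexes was not fixed.

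**Figure D3:**
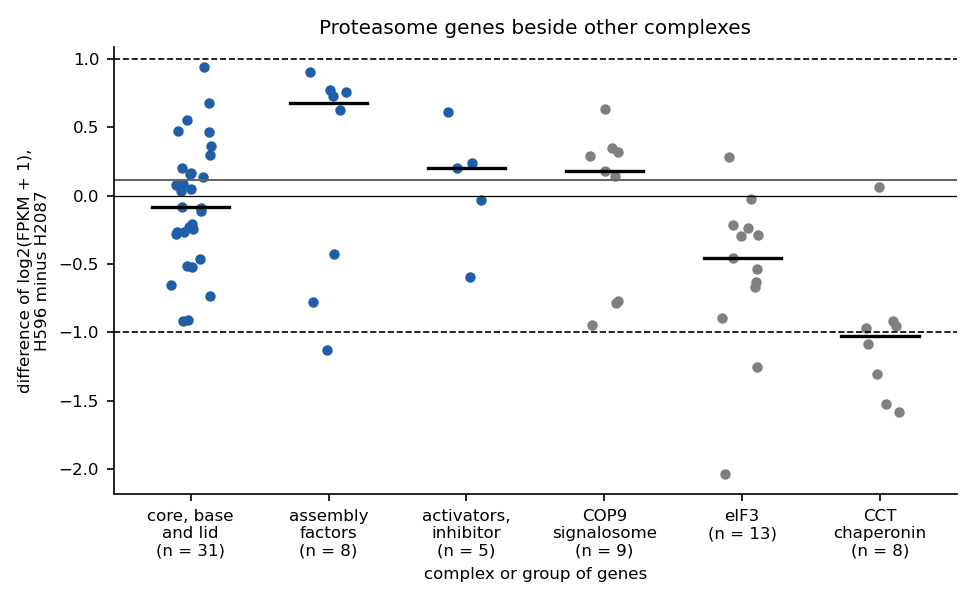
Difference of log2(FPKM + 1), H596 minus H2087 (y axis), of each gene (points) by complex or group (x axis); black bars are medians, dashed lines mark 2-fold, the thin black line 0 and the grey line the median of all genes (0.12). The 31 constitutive proteasome subunits centre near 0 (median -0.08 as deposited), the assembly factors split into high and low values, and CCT centres on -1.03; the medians shift together when the libraries are rescaled.

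The transcript table listed 113 transcripts of the 47 members. Among the 45 examined, 15 had 1 transcript and 30 had several, and the leading transcript was the same in both lines in 29 of those 30. The exception was PSMG1, on chromosome 21 (40547372 to 40555440). Transcript NM_003720 held 73.6% of the PSMG1 FPKM in H2087 and 6.0% in H596, whereas NM_001320795 held 6.3% and 65.9%. In counts NM_003720 went from 1813 to 130 and NM_001320795 from 181 to 1638, while the FPKM of the whole gene was 45.1 and 33.3.

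A share moved by at least 10 percentage points in 4 further members. In PSMG4 the transcript NM_001128592 held 26.4% in H2087 and 0.72% in H596. In PSMB5 the transcript NM_001130725 held 21.3% and 43.4%, and NM_001144932 held 19.3% and 4.3%. In PSMD10 the transcript NM_002814 led with 72.5% and 86.0%. In PSMA6 the transcript NM_001282234, which begins upstream of the others at position 35747764, held 2.3% and 14%. The median over the members with several transcripts of the largest move was 3 points. Reads that several transcripts share were divided between them by an estimate, so no counting interval fits these shares.

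**Figure D4:**
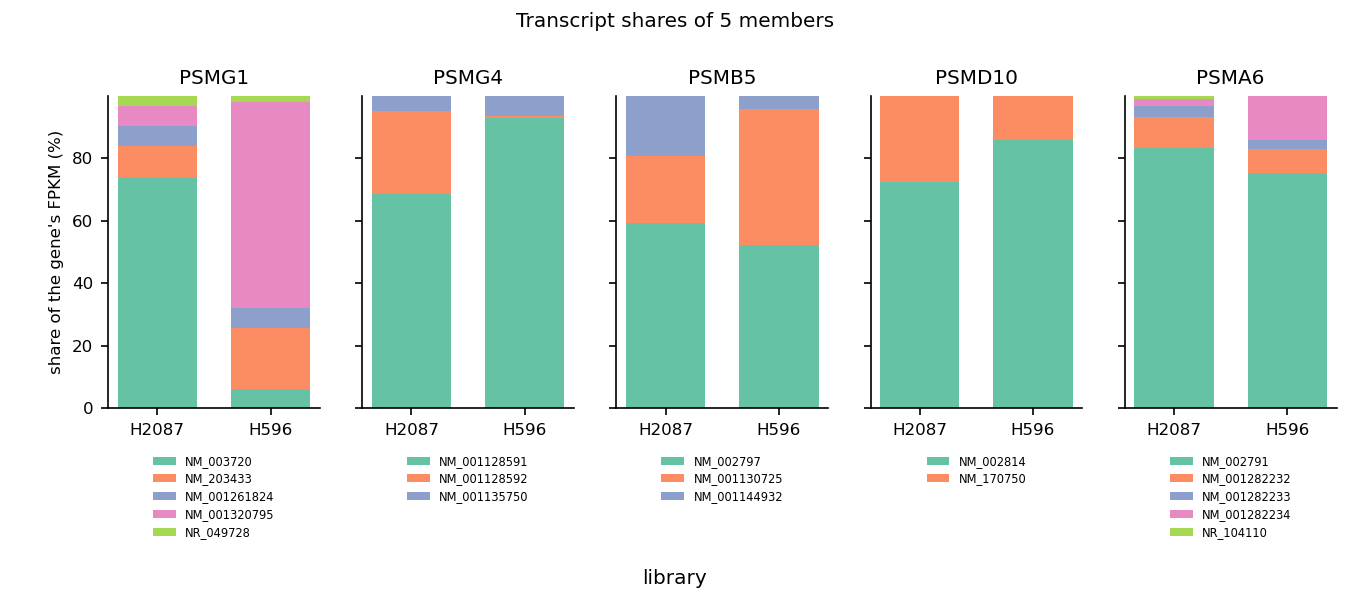
Share of each gene's FPKM (y axis, percent) held by its listed transcripts (colours, named under each panel) in the 2 libraries (x axis) for the 5 members with a move of at least 10 points. In PSMG1 the leading transcript differs between the lines (NM_003720 in H2087, NM_001320795 in H596), and in the other 4 members it is shared.

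Positions on the chromosomes were not used to choose the members, and each member's difference was set beside the median of its 40 nearest examined genes. The member and its neighbourhood lay on the same side of 0 for 33 of 45 members (73.3%), against 65.1% of all genes. Among the 16 members past 1.5-fold it was 13, and the matching figure for all genes past 1.5-fold was not computed. Measured from the median of all genes in place of 0, the shares were 68.9% of members and 64.9% of all genes. Across the 45 members Pearson's r was 0.70 and Spearman's rho 0.67, and across 13043 genes 0.31 and 0.38; these describe values that share libraries, chromosomes and in part neighbours. The SD of the members' differences was 0.53 and fell to 0.38 once each neighbourhood's median was subtracted.

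Several of the largest differences stood in neighbourhoods of like direction. Around PSMA6 the neighbours' median was -0.77, with 9 of 40 genes higher in H596, and around PSMD9 it was -0.62, with 7 of 40 higher. Around PSMG3, PSMD10, PSMG4 and PSMG2 the medians were 0.94, 0.83, 0.80 and 0.72. Around PSMD7, which lies on chromosome 16, it was -0.57. On the opposite side of 0 from their neighbours stood PSMB10 (0.73, neighbours -0.31), POMP (-0.78, neighbours 0.11) and PSMB3 (-0.65, neighbours 0.29). With 20 neighbours the median around PSMB10 was 0.09, on the side of PSMB10 itself. The value around POMP was close to the median of all genes (0.12) and lay just under it, so measured from that median POMP was on its neighbours' side. DNA copy number was not measured in these libraries, and its part in these values was not tested.

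**Figure D5:**
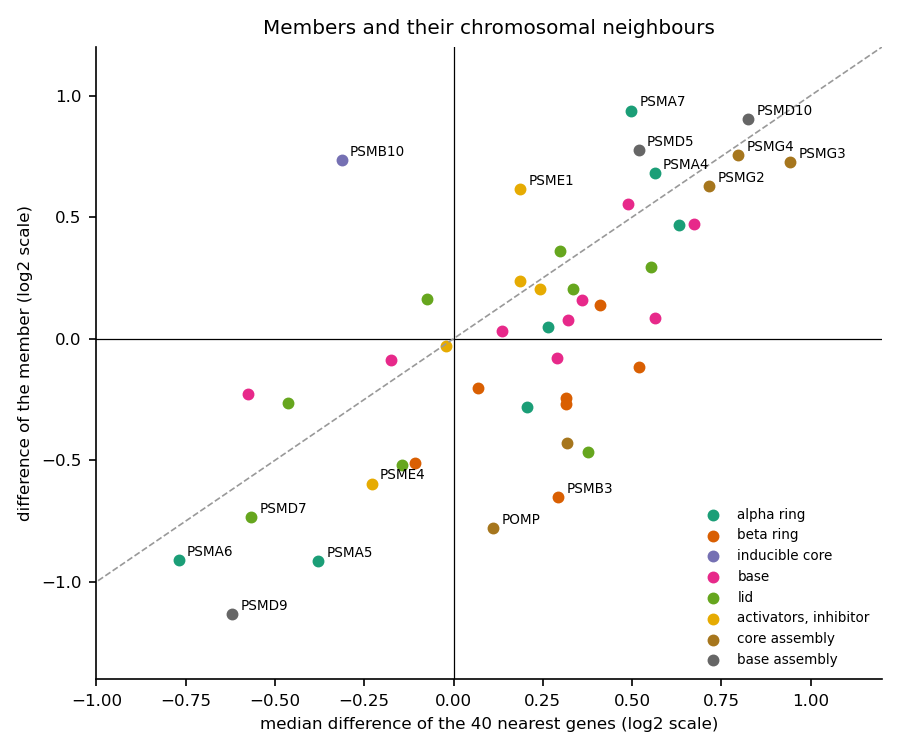
Difference of each examined member (y axis) against the median difference of its 40 nearest examined genes (x axis), both on the log2(FPKM + 1) scale, H596 minus H2087; colours give the group, names mark the 16 members past 1.5-fold and the dashed line marks equal values. Of these 16 members 13 lie on their neighbours' side of 0, and PSMB10, POMP and PSMB3 do not. Sides are as deposited with 40 neighbours, and the matching figure for all genes past 1.5-fold was not computed.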

How the data were processed

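RNA from 1 culture each of H2087 and H596 was extracted with TRIzol, made into libraries with the TruSeq Stranded mRNA kit and sequenced. Per the labels, the authors used bcl2fastq 1.8.4, Trimmomatic, HISAT2 2.0.5 and StringTie 1.3.3b with build GRCh37 (hg19). They deposited estimated counts and FPKM for 27685 genes and 63714 transcripts. How the estimated counts were formed, and whether strand was used, is not given in the sources used here.

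Members and lists were chosen with earlier results of these data known. The text gives full values for the catalytic subunits, the highest and lowest member of each group in H2087, the largest differences and every member past 1.5-fold. Of the comparison lists it gives genes past 2-fold, NFE2L1, NFE2L2, ADRM1 and SEM1, with exceptions marked. Symbols listed more than once (2) kept the higher entry. Differences were log2(FPKM + 1) at a mean FPKM of at least 1. A fold change on this scale understates the change of low genes. A 95% Wilson interval, computed on each gene's share of its library, was carried over to the FPKM; it covers counting error only. A count of 0 allows 3 counts. With 1 library per line no model was fitted; edgeR 4.0.16 (R 4.3.3) gave TMM factors, and the rest was done in Python 3.11.15 with pandas 2.3.3 and SciPy 1.17.1, tested on simulated data. Alternatives were other pseudocounts, filters, scalings, transcripts in place of genes, and 20 neighbours. Protein sequences were not analysed here.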

Additional observations from a re-analysis of the deposited data

How the results depend on the processing

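No paired analysis was possible because H2087 and H596 were each sequenced once, so leaving out a library could not be tried either. Of the main values compared with their alternatives, 47 were classed as the same, 25 as moved and 3 as changed in sign. A count was classed as the same up to a 1.5-fold change, and other values within counting error. The 9 members higher by 1.5-fold therefore counted as the same at 6 with TMM scaling and 12 with TPM. All 45 members had a mean FPKM of at least 10, so that filter could not change their counts or median. Removing the filter added only PSMA8 and PSMB11, which differed by 0 and 0.05. PSMB10 and PSMB7 each have 1 listed transcript, so transcripts could not change their ratio. The median difference of 0.05 was -0.085 with TMM scaling, -0.070 when centred on all genes, -0.080 for the core, base and lid alone and 0.23 with TPM. The 16 members past 1.5-fold became 6 for core, base and lid alone (2 higher and 4 lower), and the 7 lower ones became 4 with TPM. The 1 member past 2-fold became 3 with TMM scaling and 3 when centred (PSMA5, PSMA6 and PSMD9, all 3 lower), 2 with TPM (PSMA7 and PSMD10, 2 higher and 0 lower), 4 by the highest single transcript (PSMD10 and PSMG4 among 2 higher, PSMA6 and PSMD9 among 2 lower) and 0 (0 lower) for core, base and lid alone. The 16 members at 100 FPKM became 26 in H2087 and 29 in H596 at 50 FPKM, 3 and 4 at 200 FPKM, and 26 and 29 in TPM. The core spread by the highest single transcript was 0.863 in H2087 and 1.03 in H596. Beside the construction of each alternative, the cause was not tested. The number of libraries, not depth, limits these comparisons: the smallest count of an examined member was 613.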
